A study of Mus musculus with 3 samples.

Results

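The phagocyte NADPH oxidase is the enzyme complex with which neutrophils and macrophages make superoxide, and 5 genes of it, *Cybb*, *Cyba*, *Ncf1*, *Ncf4* and *Rac2*, were read on whole-genome mouse arrays. The members were the genes of these 5 symbols among 18193 named genes, and every probe set annotated with 1 of these symbols alone was taken, which gave 10 of 34945 probe sets. The study set tumor-associated macrophages (TAMs) of metastatic lungs (mTAMs) and of primary tumors (pTAMs) beside bone marrow-derived macrophages (BMDM), to find what differs between macrophages of the metastatic and the primary site. Both kinds of TAMs came from BALB/c mice that had carried 4T1 tumors, grown from a mammary carcinoma line of the same strain placed in the fat pad, for 5 weeks, and the mTAMs were taken from lungs matched to the primary tumors. BMDM were differentiated in culture from marrow of healthy mice, so tissue origin, tumor and culture differ together between TAMs and BMDM and cannot be told apart. Between mTAMs and pTAMs, the organ (lung or fat pad) and the kind of site (metastatic or primary) differ together. They cannot be told apart either, as no array of macrophages from normal lung was made. All 3 kinds of cells were sorted as positive for CD11b and F4/80. Each group is 1 array, and the number of animals behind an array was not given in the sources used here.

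In resting phagocytes the oxidase is kept in parts. *Cybb* encodes gp91phox, the catalytic subunit that passes electrons from NADPH to oxygen, and *Cyba* encodes p22phox, its partner in the membrane, and the pair form flavocytochrome b558. *Ncf1* encodes p47phox, the organizer that carries the cytosolic subunits to the membrane once it is phosphorylated, *Ncf4* encodes p40phox, which binds the phosphoinositide of phagosomes, and *Rac2* encodes the hematopoietic Rac GTPase that joins the assembled complex. Loss of gp91phox, p22phox or p47phox in humans causes chronic granulomatous disease, in which phagocytes take up microbes but fail to kill many of them.

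RefSeq windows upstream of the start were at hand for 3 of the 5 members, *Cybb*, *Cyba* and *Ncf1*, with GRCm38.p6 coordinates. In each, 300 bases (250 before the start and 50 after it) were searched on both strands for 3 motifs. These were GAGGAA, the core of the motif of the myeloid factor PU.1 and of other ETS factors, and GAAANNGAA, the interferon-stimulated response element. The last was TGANTCA, a loose form of the AP-1 motif, which has C or G in the middle where any base was allowed here. The stretches below are read on the strand of the gene and show the matches of *Cybb* and *Ncf1* in capitals, beside the bases next to the start of *Cyba*, where there was no match. That of *Cybb* is chrX:9469310-9469494, minus strand, and ends 15 bases after the start, that of *Ncf1* is chr5:134229626-134229725, minus strand, and that of *Cyba* is chr8:122432941-122433040, minus strand, both ending at the last base before the start.
Cybb: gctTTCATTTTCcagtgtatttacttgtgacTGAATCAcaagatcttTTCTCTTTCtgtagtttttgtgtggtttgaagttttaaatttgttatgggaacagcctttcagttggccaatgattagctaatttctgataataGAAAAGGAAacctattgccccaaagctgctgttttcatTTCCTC
Ncf1: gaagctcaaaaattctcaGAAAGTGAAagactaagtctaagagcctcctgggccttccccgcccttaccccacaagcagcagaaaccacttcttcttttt
Cyba: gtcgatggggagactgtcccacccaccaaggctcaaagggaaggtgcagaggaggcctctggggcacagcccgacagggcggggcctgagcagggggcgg

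The *Cybb* window held GAAANNGAA at 3 places, on the opposite strand at positions -167 to -159 and -123 to -115 and on the strand of the gene at -29 to -21, counted from the start. It also held TGANTCA at -139 to -133, a pattern that matches on both strands, and GAGGAA on the opposite strand at 10 to 15. The TGANTCA match had A in the middle, so it was not the strict AP-1 motif. None of these matches overlapped another. *Ncf1* had a single GAAANNGAA at -82 to -74 on the strand of the gene, and the *Cyba* window held none of the 3 motifs. Of 32851 promoter windows of this length, 28.3% held GAGGAA, 8.56% held GAAANNGAA and 7.81% held TGANTCA. Whether any factor binds these letters in the cells was not measured.

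The values are log2 signals made by robust multi-array averaging (RMA), and a value above 5.3 was taken as above background. This floor is the 95th percentile over 83 probe sets of chemosensory receptors (smell, pheromone and bitter taste), genes used for the most part by sensory cells. All 10 probe sets of the oxidase lay above it on all 3 arrays. Levels are compared between arrays within a probe set only, because probe sets bind with different strength.

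The catalytic subunit was higher in both kinds of TAMs than in BMDM, and mTAMs and pTAMs had nearly the same value. The brightest probe set of *Cybb* (1436778_at) had a log2 value of 11.88 in mTAMs, 11.89 in pTAMs and 11.09 in BMDM. The probe set 1436779_at had 11.13 in mTAMs, 11.22 in pTAMs and 10.40 in BMDM, and 1422978_at had 10.88 in mTAMs, 10.79 in pTAMs and 9.77 in BMDM. In all 3 probe sets both TAM arrays lay above the BMDM array, by a log2 difference of 0.73 to 1.11 for mTAMs and of 0.80 to 1.02 for pTAMs. The brightest probe set gave 1.73-fold for mTAMs over BMDM and 1.74-fold for pTAMs over BMDM. Between mTAMs and pTAMs the log2 differences of the 3 probe sets were -0.09, -0.01 and 0.09, and the -0.01 of the brightest became 0.19 after cyclic loess normalization, so no order of mTAMs and pTAMs can be given for *Cybb*.

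*Cyba*, the partner of *Cybb* in the membrane flavocytochrome, was the member that varied least over the arrays. Its only probe set (1454268_a_at) had a log2 value of 12.84 in mTAMs, 12.78 in pTAMs and 12.45 in BMDM. Both TAM arrays were above BMDM, by 1.31-fold in mTAMs and 1.26-fold in pTAMs, and mTAMs and pTAMs were 0.06 apart on the log2 scale. By its name this probe set may bind more than 1 transcript of the gene.

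*Ncf1*, the phosphorylated organizer, had another order of the arrays. Its brightest probe set (1456772_at) had a log2 value of 12.02 in mTAMs, 11.33 in pTAMs and 11.60 in BMDM. The probe set 1451767_at had 11.69 in mTAMs, 10.67 in pTAMs and 10.73 in BMDM, and 1425609_at had 10.68 in mTAMs, 9.45 in pTAMs and 9.65 in BMDM. In all 3 the mTAMs array was the highest and pTAMs the lowest. The log2 difference of mTAMs over pTAMs was 0.69, 1.02 and 1.23, or 1.61-fold, 2.03-fold and 2.35-fold, and that of mTAMs over BMDM was 0.42, 0.96 and 1.03 in the same probe sets. The pTAMs array was below BMDM by less, with log2 differences of -0.27, -0.06 and -0.20.

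*Ncf4* had a graded pattern. Its only probe set (1418465_at) had a log2 value of 12.40 in mTAMs, 12.03 in pTAMs and 11.28 in BMDM. The fold was 2.17 for mTAMs over BMDM, 1.68 for pTAMs over BMDM and 1.29 for mTAMs over pTAMs.

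*Rac2* was the member with the largest difference of mTAMs from both other arrays, and pTAMs were close to BMDM in its brightest probe set. That probe set (1417620_at) had a log2 value of 12.20 in mTAMs, 11.01 in pTAMs and 10.98 in BMDM. The mTAMs were thus 2.33-fold above BMDM and 2.28-fold above pTAMs, and the log2 difference of pTAMs from BMDM, 0.03, became -0.04 when each array was centered on its median. The dimmer probe set (1440208_at) had 7.86 in mTAMs, 6.42 in pTAMs and 5.77 in BMDM. There mTAMs were 4.26-fold above BMDM and 2.71-fold above pTAMs, and pTAMs were 1.57-fold above BMDM, so the pair of probe sets put mTAMs highest but differed on pTAMs and BMDM.

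**Figure D1:**
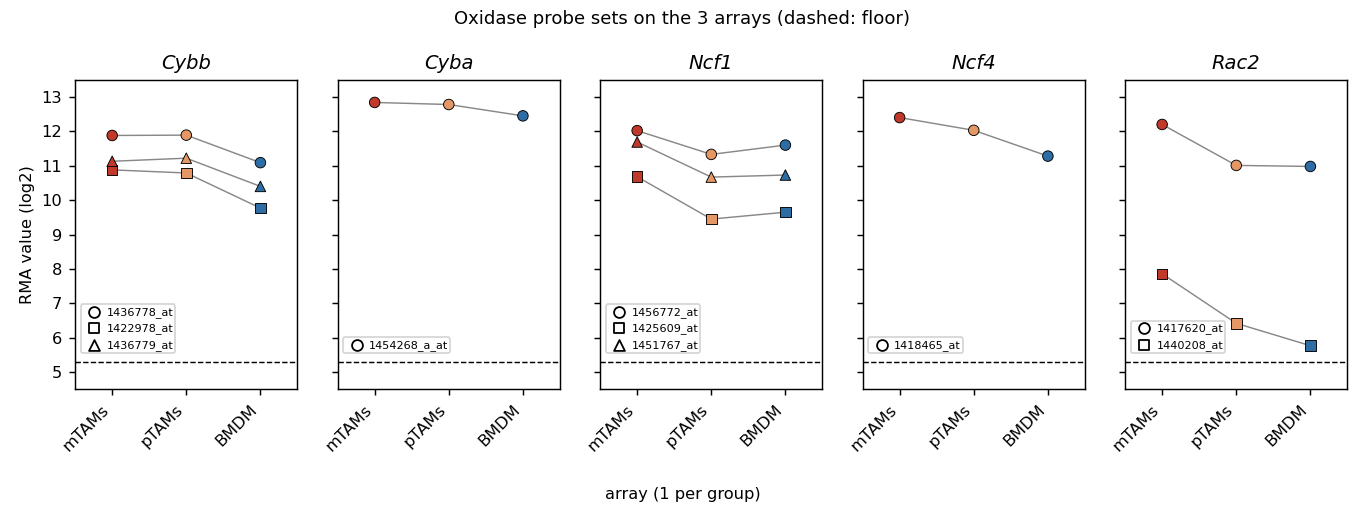
RMA values (log2, vertical axis) of the 10 oxidase probe sets on the 3 arrays (horizontal axis, mTAMs, pTAMs and BMDM), with 1 panel per gene, 1 marker shape per probe set and the floor of 5.3 as a dashed line. The *Cybb* probe sets stand higher in mTAMs and pTAMs than in BMDM, while the *Ncf1* and *Rac2* probe sets stand highest in mTAMs.

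With 1 array a group there is no spread between samples and no test, so calls were made at a 2-fold difference, and the members were read against every gene that passed the floor on 1 or both of the arrays compared. In mTAMs over BMDM, 2 of the 5 members, *Ncf4* and *Rac2*, were called higher and none lower, where 11.5% of 11945 genes were called higher and 14.4% lower. In pTAMs over BMDM none of the 5 was called, where 8.78% of 11859 genes were called higher and 7.50% lower. In mTAMs over pTAMs, *Rac2* alone was called higher and none lower, where 5.36% of 11801 genes were called higher and 2.58% lower. These are counts of 5 genes chosen by name, and the first and second comparison share the BMDM array.

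The median log2 difference of the 5 members was 0.79 in mTAMs over BMDM, 0.33 in pTAMs over BMDM and 0.37 in mTAMs over pTAMs, beside medians over all compared genes of -0.11, -0.05 and -0.06. The members therefore lay in the upper part of the distribution in most comparisons. For mTAMs over BMDM, 9.55% of the genes had a larger difference than *Rac2*, 10.3% than *Ncf4*, 13.7% than *Cybb*, 19.6% than *Ncf1* and 20.1% than *Cyba*. For pTAMs over BMDM the shares were 10.3% for *Cybb*, 10.9% for *Ncf4*, 18.7% for *Cyba*, 32.4% for *Rac2* and 66.3% for *Ncf1*. For mTAMs over pTAMs they were 4.01% for *Rac2*, 8.39% for *Ncf1*, 14.4% for *Ncf4*, 28.9% for *Cyba* and 45.9% for *Cybb*. *Cybb* thus had the largest difference of the 5 in pTAMs over BMDM and the smallest in mTAMs over pTAMs, comparisons that share the pTAMs array.

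A measure of technical spread was the standard deviation between probe sets of the same gene, which was 0.441 for the log2 difference of mTAMs over BMDM (4760 genes with several probe sets), 0.347 for pTAMs over BMDM (4817 genes) and 0.265 for mTAMs over pTAMs (4939 genes). It says nothing about the spread between animals or between repeated arrays, since the probe sets of a gene are read on the same arrays. The pTAMs and BMDM values of *Ncf1*, and those of *Rac2* in its brightest probe set, differed by less than this standard deviation. So did the mTAMs and pTAMs values of *Cybb* and *Cyba*. The differences of *Cyba* from BMDM, 0.39 in mTAMs and 0.33 in pTAMs, and that of *Ncf1* in its brightest probe set in mTAMs, 0.42, were also below it.

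**Figure D2:**
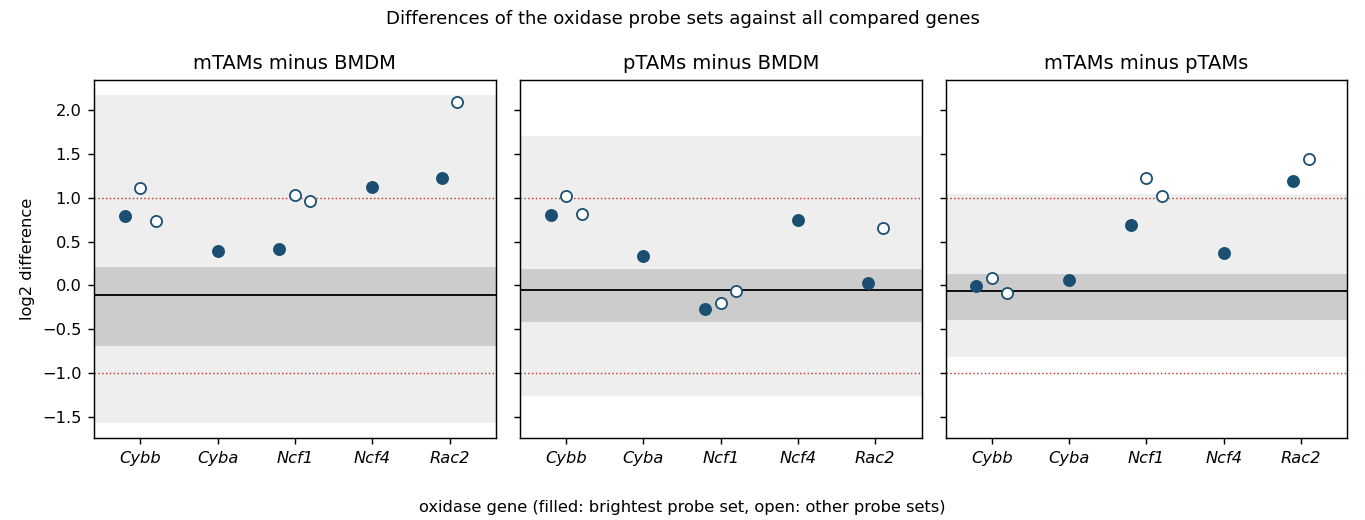
Log2 differences (vertical axis) of the oxidase probe sets by gene (horizontal axis) in the 3 comparisons, with the brightest probe set of each gene filled and the others open. The dark band spans the middle 50% of all compared genes, the light band the 5th to 95th percentile, the black line is their median and the dotted lines mark a 2-fold difference. In mTAMs minus pTAMs both *Rac2* probe sets and the *Ncf1* probe set at 1.23 lie above the 95th percentile of 1.03. Those of *Cybb* and *Cyba* lie between -0.09 and 0.09.

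Taken by place in the enzyme, the membrane genes and the cytosolic genes separated mTAMs from pTAMs differently. The mean log2 difference of mTAMs over pTAMs was 0.03 for the membrane pair *Cybb* and *Cyba* and 0.75 for the cytosolic *Ncf1*, *Ncf4* and *Rac2*. Against BMDM, the membrane mean was 0.59 in mTAMs and 0.57 in pTAMs, and the cytosolic mean was 0.92 in mTAMs and 0.17 in pTAMs. There the single members did not split by place. In pTAMs the cytosolic *Ncf4*, at 0.75, was close to *Cybb*, at 0.80, while *Cyba* was at 0.33, *Rac2* at 0.03 and *Ncf1* at -0.27. In mTAMs the cytosolic *Ncf1*, at 0.42, was close to *Cyba*, at 0.39, while *Cybb* was at 0.79, *Ncf4* at 1.12 and *Rac2* at 1.22. At the level of probe sets, the lowest mTAMs minus pTAMs value among those of *Ncf1* and *Rac2*, 0.69, was above the highest among those of *Cybb* and *Cyba*, 0.09, with *Ncf4* between them at 0.37. This is a description of 5 genes on 1 array a group and was not tested. The grouping by place was not among the results planned beforehand.

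Markers of other leukocytes were also read on the sorted cells. Of 10 neutrophil markers read, all 10 were called higher in mTAMs over BMDM, all 10 in pTAMs over BMDM and 8 in mTAMs over pTAMs. Their summed signal on the linear scale came to 76859 in mTAMs, 33357 in pTAMs and 1679 in BMDM, and *Cxcr2*, *Lcn2* and *Padi4* were at or below the floor in BMDM. The chemokine receptor *Cxcr2*, for one, had a log2 value of 11.32 in mTAMs, 8.18 in pTAMs and 5.14 in BMDM. Neutrophils use all 5 oxidase genes. Between mTAMs and pTAMs the median of the neutrophil markers was 1.80, beside differences of 1.19 in *Rac2*, 0.69 in *Ncf1*, 0.37 in *Ncf4*, 0.06 in *Cyba* and -0.01 in *Cybb*. Between pTAMs and BMDM the neutrophil markers were apart by a median log2 difference of 3.38, or 3.05 where the BMDM values under the floor are set at 5.3. Beside it, *Cybb* differed by 0.80, *Ncf4* by 0.75, *Cyba* by 0.33 and *Ncf1* by -0.27. *Rac2* differed by 0.03 in its brightest probe set and by 0.65 in the dimmer one. The part of neutrophils in the oxidase values was not tested, and in bulk samples a different share of cells and a different RNA content per cell cannot be told apart.

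All 10 macrophage markers were above the floor on all 3 arrays, with a summed signal of 49806 in mTAMs, 55555 in pTAMs and 59001 in BMDM. The sorting antigen F4/80 (*Adgre1*) was lower in TAMs, with log2 differences from BMDM of -1.87 in mTAMs and -1.93 in pTAMs, and CD11b (*Itgam*) was higher, with log2 values of 11.61 in mTAMs, 11.90 in pTAMs and 10.46 in BMDM. The 5 genes listed as monocyte markers summed to 13386 in mTAMs, 13373 in pTAMs and 2113 in BMDM, but they differed between the TAM arrays. *Vcan* was called lower in mTAMs over pTAMs, at 8.57 in mTAMs, 9.86 in pTAMs and 6.44 in BMDM. *Cd177*, foremost a neutrophil antigen, was called higher, at 11.64 in mTAMs, 8.52 in pTAMs and 3.89 in BMDM. In mTAMs minus pTAMs, *Ccr2* differed by -0.93 and *Treml4* by 0.51, and *Plac8* was equal. The close sums of the TAM arrays hold *Cd177* and thus do not show an equal monocyte signal. Of 6 eosinophil markers, *Siglecf* and *Prg2* were above the floor in mTAMs alone, and the list summed to 1556 in mTAMs, 495 in pTAMs and 127 in BMDM. *Epx*, *Ccr3* and *Il5ra* were at or below the floor on all arrays. Of 9 lymphocyte markers 4 were above the floor on each array, with sums of 637 in mTAMs, 366 in pTAMs and 342 in BMDM, and *Cd79a*, *Cd79b*, *Ms4a1*, *Cd3g* and *Ncr1* were below it on all 3. Only *Cd3d* was called, higher in mTAMs than on both other arrays, at 8.31 in mTAMs, 6.03 in pTAMs and 5.86 in BMDM. The 7 epithelial markers summed to 1830 in mTAMs, 3589 in pTAMs and 238 in BMDM, an order of mTAMs and pTAMs opposite to that of *Ncf1* and *Rac2*. The part of these cells in the oxidase values was not tested.

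Beside the 5 members, 19 of 23 listed genes for assembly and control of the oxidase were read. None was called in mTAMs over BMDM, 1 was called higher in pTAMs over BMDM, and 2 were called higher and 1 lower in mTAMs over pTAMs, with median log2 differences of 0.22, -0.09 and 0.22. Over all compared genes, 5.36% were called higher and 2.58% lower in mTAMs over pTAMs, so counts this small are no result about the list. The shares given above for the comparisons with BMDM stand beside the counts of the lists below too. The genes called in mTAMs over pTAMs were *Hvcn1*, the voltage-gated proton channel that carries off the charge the oxidase builds up, *Pik3r5*, the p101 subunit of the phosphoinositide 3-kinase gamma, and *Pla2g4a*, the cytosolic phospholipase A2. *Hvcn1* had a log2 value of 9.10 in mTAMs, 7.48 in pTAMs and 8.45 in BMDM, and *Pik3r5* had 9.29 in mTAMs, 7.79 in pTAMs and 8.77 in BMDM. Like *Ncf1*, both had mTAMs highest and pTAMs lowest. *Pla2g4a* went the other way, with 9.14 in mTAMs, 10.27 in pTAMs and 10.02 in BMDM, and was no longer called lower after cyclic loess normalization. The kinase gene *Prkca* was the gene called in pTAMs over BMDM, with 7.23 in mTAMs, 7.72 in pTAMs and 6.68 in BMDM, but not by the mean of its 3 probe sets.

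The chaperone gene *Cybc1*, whose product is needed for stable gp91phox and p22phox, had a log2 value of 9.79 in mTAMs, 9.35 in pTAMs and 8.98 in BMDM. In this brightest probe set of *Cybc1* the order was that of *Ncf4*, with 0.81 in mTAMs minus BMDM. The other of its 2 probe sets did not have that order, with 0.00 in mTAMs minus BMDM and -0.14 in pTAMs minus BMDM. *Nrros*, a negative regulator of the oxidase that binds gp91phox, had 11.25 in mTAMs, 11.09 in pTAMs and 11.71 in BMDM, so TAMs were lower, by less than 2-fold. *Rac1*, the widely expressed relative of *Rac2*, had 12.02 in mTAMs, 12.27 in pTAMs and 12.38 in BMDM. The 3 *Rac1* probe sets ranged from -0.25 to 0.20 in mTAMs minus pTAMs, so no direction can be given, in contrast to the 1.19 and 1.44 of *Rac2*. *Rap1a*, a small GTPase that copurifies with flavocytochrome b558, had 11.49 in mTAMs, 11.76 in pTAMs and 11.44 in BMDM, and *Arhgdib*, which holds Rac GTPases in the cytosol, had 12.21 in mTAMs, 11.57 in pTAMs and 12.05 in BMDM. The remaining genes read were *Prkcb*, *Vav1*, *Vav3*, *Prex1*, *Dock2*, *Pik3cg*, *Pik3c3*, *Coro1a* and *Msn*. By their brightest probe sets, the log2 differences ran from -0.55 (*Vav3*) to 0.84 (*Vav1*) in mTAMs minus BMDM. They ran from -0.65 (*Vav3*) to 0.35 (*Prkcb*) in pTAMs minus BMDM and from -0.09 (*Pik3c3*) to 0.72 (*Prex1*) in mTAMs minus pTAMs. Other probe sets went higher, and none of them was 2-fold lower. In mTAMs minus BMDM they reached 1.44 for *Dock2*, 1.16 for *Prkcb* and 1.03 for *Msn*. In mTAMs minus pTAMs they reached 1.05 for *Dock2* and 1.13 for *Prkcb*, and in pTAMs minus BMDM 0.96 for *Coro1a*.

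Of 9 listed genes of other NADPH oxidases and their partners, 5 were read. The oxidases *Nox4* and *Duox1* and the maturation factors *Duoxa1* and *Duoxa2* were at or below the floor on all 3 arrays, and the organizer *Noxo1* was just above it, with a log2 value of 5.50 in mTAMs, 5.55 in pTAMs and 5.50 in BMDM. Among enzymes that use or accompany the products of the oxidase, myeloperoxidase (*Mpo*), which makes hypochlorous acid from hydrogen peroxide in neutrophil granules, had 8.98 in mTAMs, 6.32 in pTAMs and 5.44 in BMDM, or 6.32-fold for mTAMs over pTAMs. The inducible nitric oxide synthase (*Nos2*) had 6.18 in mTAMs, 6.31 in pTAMs and 5.53 in BMDM, with no 2-fold difference.

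Of the receptors and kinases that trigger the burst, 10 of 12 listed genes were read. Against BMDM, 5 were called higher in mTAMs and 5 in pTAMs, and none lower, with medians of 0.92 in mTAMs and 1.00 in pTAMs. In both they included the formyl peptide receptor *Fpr2*, the beta-glucan receptor *Clec7a* (Dectin-1), the activating Fc receptor *Fcgr4* and *Itgam*, which was also a sorting antigen. *Fpr2* had a log2 value of 13.13 in mTAMs, 12.10 in pTAMs and 8.45 in BMDM. *Clec7a* had 13.13 in mTAMs, 12.77 in pTAMs and 8.71 in BMDM, and *Fcgr4* had 12.37 in mTAMs, 12.32 in pTAMs and 8.85 in BMDM. These receptor differences were larger than any of an oxidase probe set, the largest of which was 2.09. *Syk*, the kinase downstream of Dectin-1 and Fc receptors, was called in mTAMs over BMDM, with 10.56 in mTAMs, 9.61 in pTAMs and 8.74 in BMDM. In mTAMs minus pTAMs its 4 probe sets ranged from 0.95 in the brightest to 1.58, and it was called there too after cyclic loess normalization and by the mean of its probe sets. Between mTAMs and pTAMs, *Fpr2* was called higher and the high-affinity Fc receptor *Fcgr1* lower, at 10.58 in mTAMs, 12.03 in pTAMs and 10.91 in BMDM.

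Among genes that remove superoxide and peroxide, calls against BMDM went down only. Of 14 compared, 6 were called lower in mTAMs than in BMDM and 6 in pTAMs than in BMDM, none was called higher in either, and the medians were -0.73 in mTAMs and -0.68 in pTAMs. Catalase (*Cat*) had a log2 value of 9.44 in mTAMs, 9.50 in pTAMs and 11.38 in BMDM, and the glutathione synthesis gene *Gclc* had 8.04 in mTAMs, 8.21 in pTAMs and 10.10 in BMDM. The peroxiredoxin *Prdx4* had 9.50 in mTAMs, 10.28 in pTAMs and 11.43 in BMDM. These 3 genes were thus below BMDM in both kinds of TAMs, where *Cybb*, *Cyba* and *Ncf4* were above it. The count depends on the probe sets, as 3 were called lower in mTAMs when a gene was read as the mean of its probe sets. In mTAMs over pTAMs only *Gclm* was called, with 10.05 in mTAMs, 8.27 in pTAMs and 10.75 in BMDM.

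**Figure D3:**
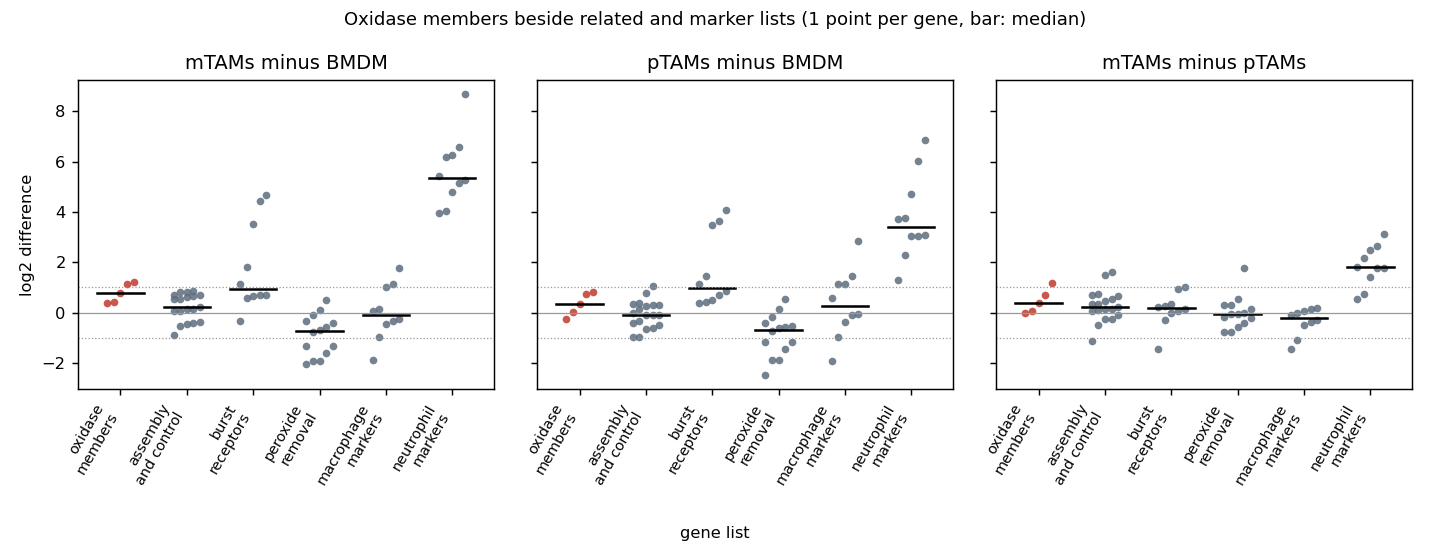
Log2 differences (vertical axis) in the 3 comparisons for the 5 oxidase genes and for the genes of 5 lists that passed the floor on 1 or both arrays (horizontal axis), with 1 point per gene, the median as a bar and a 2-fold difference as dotted lines. The removal genes lie mostly below 0 against BMDM, with medians of -0.73 and -0.68, and the neutrophil markers lie highest, with medians of 5.35, 3.38 and 1.80 in the order of the panels, drawn with BMDM values below the floor as measured.

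Of the transcription factors named for myeloid genes, 8 of 11 listed were read, and 2, *Cebpb* and *Irf1*, were called higher in both kinds of TAMs than in BMDM. *Cebpb* had a log2 value of 13.67 in mTAMs, 13.11 in pTAMs and 10.94 in BMDM, and the interferon-induced *Irf1* had 11.62 in mTAMs, 11.38 in pTAMs and 9.05 in BMDM. *Spi1*, which encodes PU.1, had 11.49 in mTAMs, 10.70 in pTAMs and 10.52 in BMDM, an order of arrays like that of *Rac2*, with 0.79 between mTAMs and pTAMs. *Irf8*, which acts with PU.1 at *CYBB* in human myeloid cells, was lower in mTAMs than in pTAMs, with 9.82 in mTAMs, 10.88 in pTAMs and 9.95 in BMDM, but was no longer called after cyclic loess normalization or by the mean of its probe sets.

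The genes most like each member were found by the distance over the log2 differences of mTAMs and of pTAMs from BMDM among 10583 genes above the floor on all 3 arrays. With 3 arrays this likeness rests on 2 numbers that share the BMDM array, and many genes lie close to any point. Within a distance of 0.3 there were 621 genes of *Cyba*, 257 of *Ncf1*, 187 of *Cybb*, 148 of *Ncf4* and 76 of *Rac2*. Nearest to *Cybb* were *Ndfip2*, *Enc1*, *Stk40*, *Prkcd* and *Smndc1*, at distances of 0.028 to 0.064. *Prkcd*, a protein kinase C that phosphorylates p47phox, had a log2 value of 10.84 in mTAMs, 10.77 in pTAMs and 10.01 in BMDM in its brightest probe set. The other of its 2 probe sets was unlike *Cybb*, with log2 differences of 1.54 in mTAMs minus BMDM and 0.65 in mTAMs minus pTAMs. Nearest to *Ncf4* were *Nlrp3*, *Pik3r6*, *Rgs2*, *E4f1* and *Lrig2*, at 0.022 to 0.042. Nearest to *Rac2* were *Unc119*, *Ulk1*, *Gcc1*, *Atg3* and *Nbeal2*, at 0.010 to 0.090. For *Ncf1* they were *Gabarapl2*, *Ccm2*, *Cib1*, *Nbr1* and *Dnmbp*, at 0.014 to 0.040, and for *Cyba* they were *Tmem203*, *Hnrnpul1*, *Mbnl2*, *Pnisr* and *Tmem88*, at 0.014 to 0.032.

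*Ncf4* and *Rac2* are near neighbours on chromosome 15 in RefSeq, with 10 protein-coding genes between them, of which all 10 were on the array and 8 passed the floor on 1 array or more. The other members lie on chromosomes X, 8 and 5. Of the 8, only the cytokine receptor genes *Csf2rb* and *Csf2rb2* were 2-fold or more above BMDM. *Csf2rb*, the shared beta chain of the receptors for GM-CSF, interleukin-3 and interleukin-5, had a log2 value of 12.29 in mTAMs, 11.96 in pTAMs and 9.46 in BMDM, and *Csf2rb2* had 10.85 in mTAMs, 10.82 in pTAMs and 8.03 in BMDM. In both, as in *Ncf4*, the TAM arrays stood above BMDM. The remaining 6 differed by at most 0.63 in either direction in all 3 comparisons. These genes were picked by position, after the values of the members were known.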

How the data were processed

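Total RNA of sorted macrophages was hybridised to Affymetrix mouse arrays, 1 for mTAMs, 1 for pTAMs and 1 for BMDM. TAMs had been released from minced tissue with collagenase IV and hyaluronidase, separated on Percoll and sorted. Selection of the array cells on Ly6C was not given in the sources used here. In 1 table the authors deposited log2 values made with RMA, a method that corrects background, quantile-normalizes the arrays and summarizes each probe set over them. The version was not given in the sources used here, and a shift of the whole transcriptome cannot be seen in such values. All 3 values were identical in 9656 of 45037 probe sets (21.4%), 82.2% of these at or below the floor, and none of these belonged to a member.

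The platform annotation gave the gene names: 34945 probe sets had 1 symbol, 932 several and 9160 none, and only the first kind was used. The gene value was that of the brightest probe set (highest mean of the 3 arrays), and every probe set of a member is given. A comparison took the genes that passed the floor on 1 or both arrays, and a log2 difference of 1 was a call. Above the floor were 11611 genes in mTAMs, 11543 in pTAMs and 11423 in BMDM. Pearson's r across all probe sets was 0.979 for mTAMs and pTAMs, 0.926 for mTAMs and BMDM and 0.950 for pTAMs and BMDM, and probe sets are not independent replicates. No test was run, since each group is 1 array. The number of arrays limits the precision. Named were all members, the other oxidase, assembly and chaperone genes, up to 3 called genes a list and direction in each comparison, and the 5 genes nearest to each member. *Spi1*, *Syk*, *Itgam*, *Nos2*, the marker genes and the neighbours of *Ncf4* and *Rac2* were named after their values were seen. The members and lists were chosen with earlier results of these data known. Alternatives were median centering, quantile and cyclic loess normalization, the mean of the probe sets, no shared probe sets, other floors and a 3-fold threshold. The calls were tried on simulated data. The differences added there were larger than those of the called members, so calls as close to the threshold as theirs were not tested. Python 3.11.15, numpy 2.4.6, pandas 2.3.3, matplotlib 3.10.9, R 4.3.3 and limma 3.58.1 were used.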

Additional observations from a re-analysis of the deposited data

How the results depend on the processing

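No paired analysis was possible because each group is 1 array. Of the counts of called members, 46 of 48 values under the alternatives were within 1.5 times the count given. The others came from the 3-fold threshold, where 0 members were called in mTAMs over BMDM, against 2 at 2-fold, and 0 in mTAMs over pTAMs, against 1. Most of the 48 were 0 beside a given count of 0. The other floors could not change a call, since the gene values of all members lay far above them, and a rise from 2 to 3 counted as within 1.5 times. The share of unmoved counts thus says little about how firm the calls are. All 15 medians of the members moved by less than the standard deviation between probe sets, as did 71 of 72 differences of single members, the other being *Ncf1* in mTAMs minus pTAMs, which was 0.98 by the mean of its probe sets and 0.69 by the brightest. Cyclic loess normalization moved the median of all genes in mTAMs minus BMDM to 0.00, against -0.11 as deposited, and 55.2% of calls were then higher, against 44.4%. *Cybb* came to 1.03 there, so 3 of the 5 members were called higher. Leaving out probe sets marked as shared removed *Cyba*. Of the counts of the related lists, 63 of 72 were within 1.5 times. With cyclic loess normalization 3 assembly genes were called higher in mTAMs over BMDM, against 0 as deposited. Signal over background limited none of the members except the dimmer *Rac2* probe set, which was close to the floor in BMDM.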
